A study of Mus musculus with 4 samples.

Results

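WT macrophages cultured with butyrate were compared with WT macrophages cultured without it across the whole transcriptome. The comparison rests on 2 of the 4 RNA libraries of the study, 1 for each condition, labelled WT-Butyrate and WT-Control. Both held total RNA of bone marrow-derived macrophages, which the methods describe as bone marrow cells of C57BL/6 mice grown for 4 d with macrophage colony-stimulating factor (M-CSF), and the labels give the treatment as 500 µM butyrate for 24 h. The labels put the remaining 2 libraries, LNCKO-Control and LNCKO-Butyrate, in the LNCKO genotype, which comes from mice that lack the long noncoding RNA lncLy6c in all cells after CRISPR-Cas9 deletion. The study compared the 4 cultures to ask whether butyrate acts on Runx3, a transcription factor of the immune system, and whether this needs lncLy6c. The C57BL/6 mice were obtained at an age of 4 to 6 weeks and were of either sex, per the methods, which tie no age, sex or number of animals to a library.

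Each gene carried 1 FPKM value per library, that is, fragments per kilobase of gene per 1000000 fragments. A gene was counted where its FPKM averaged 1 or more over the 4 libraries, which held for 6809 of the 16375 genes listed. The measure throughout is the log2 ratio of FPKM + 1 in butyrate to FPKM + 1 in control. A value of 1 is a 2-fold difference and a value of 0.263 is a 1.2-fold difference, and both were used as bars to count genes. The 10 genes just over the limit of 1 FPKM had log2 ratios from -0.38 to 0.10 in WT, and the 10 just under it from -0.37 to 0.02. With 1 library per condition, differences could not be set against a spread between replicates and carry no p-value, so "higher" and "lower" compare these libraries and not the conditions. Where a plain ratio of FPKM is given, its 95% exact interval comes from the fragments of the gene and covers counting error only.

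Butyrate is a short-chain fatty acid that gut bacteria make from fibre. It enters cells through monocarboxylate transporters, binds G protein-coupled receptors such as Ffar2 and Hcar2, and inhibits class I histone deacetylases, the enzymes that take acetyl groups off histones. Macrophages that grow from marrow in M-CSF pass from dividing progenitors through Ly6c-positive monocytes to F4/80-positive cells, which take up debris, present antigen and secrete chemokines, complement and cytokines.

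The libraries held 56392027 fragments in WT control and 59195292 in WT butyrate, against 53363943 and 65521715 in the LNCKO pair. These totals turned 98.5% of the matched genes into whole fragments in all 4 libraries when a gene was given its whole genomic span as its length, introns included, and 6.99% when it was given its exons. FPKM on this scale is therefore set side by side between libraries and not between genes. The WT libraries also differed from the LNCKO libraries in the Y-linked gene Ddx3y, with 49 and 65 fragments against 6128 and 7764, so differences between the genotypes cannot be told apart from this one.

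The label of macrophages was checked on marker genes. All 6 macrophage markers (Adgre1, Csf1r, Fcgr1, Cd68, Itgam and Mertk) were counted, and their summed FPKM was 483 in WT control and 529 in WT butyrate. Csf1r, the M-CSF receptor, had 46.5 FPKM in control and 46.5 in butyrate, a log2 ratio of 0.00. Markers of other marrow cells were present as well. All 8 neutrophil and granulocyte precursor markers were counted, with summed FPKM of 2550 in control and 2955 in butyrate, and 5 of 6 B cell markers, with 209 and 163. Mast cell and basophil markers summed to 45.3 and 33.8, with 3 of 5 counted. Of the T and NK cell, erythroid, dendritic cell and stromal markers, 6 of 19 were counted. Among these, the T and NK cell marker Nkg7 had 10.5 FPKM in WT control and 15.6 in WT butyrate. The erythroid markers Hba-a1 and Hbb-bt had 2.97 and 0.686 FPKM in control and 3.15 and 0.986 in butyrate. A further erythroid marker, Klf1, was not counted and stood under 0.1 FPKM in both WT libraries. In RNA from a whole culture, fewer cells of a type and less RNA per cell cannot be told apart, and the part that the mixture of cells plays in any ratio given here was not tested.

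**Figure D1:**
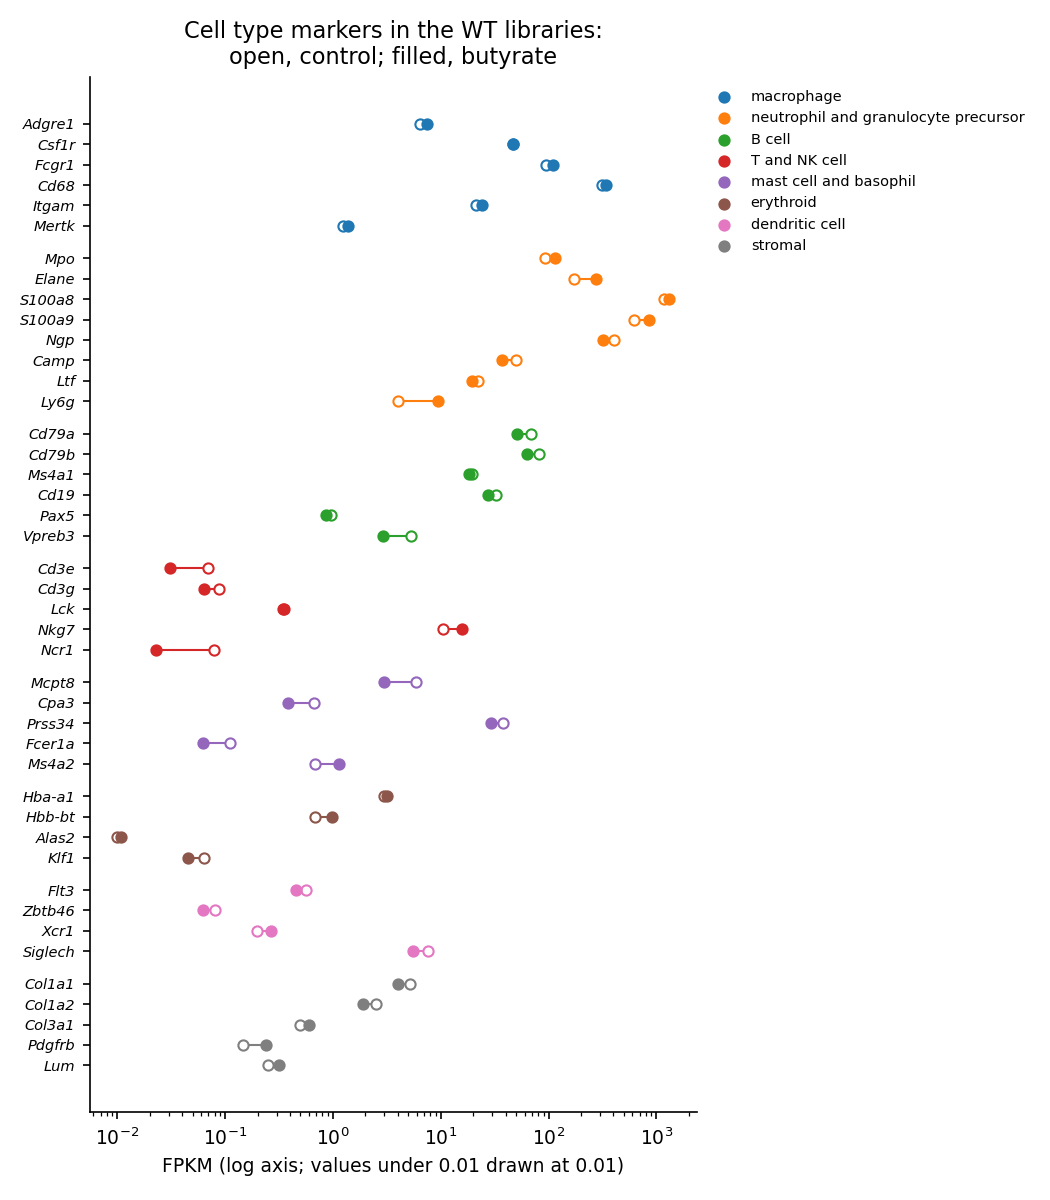
FPKM (log axis) of marker genes of 8 cell types in WT control (open circles) and WT butyrate (filled circles), 1 library each, coloured by cell type. The T and NK cell markers Cd3e, Cd3g and Ncr1 lie under 0.1 FPKM in both libraries, whereas Nkg7 lies at 10.5 in control and 15.6 in butyrate. All 6 B cell markers lie lower with butyrate.

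Butyrate and control differed little for most genes. The median log2 ratio of the 6809 genes was -0.04, the central 90% of them lay between -0.27 and 0.25, and the SD across genes was 0.19. In the LNCKO pair the SD was 0.12. In WT, 18 genes were at least 2-fold higher with butyrate (0.264% of those counted) and 5 were at least 2-fold lower (0.0734%). At the 1.2-fold bar, 296 genes were higher (4.35%) and 365 were lower (5.36%), against 107 (1.57%) and 59 (0.867%) in the LNCKO pair. Scaling the WT libraries by their median ratio turned the first split to 410 higher and 250 lower, so 44.8% of the genes past this bar were higher in one case and 62.1% in the other. Rescaling each library to a sum of 1000000, which lifted 11021 genes over the limit of 1, gave 880 higher and 2016 lower, or 30.4% higher. Genes past the bar were more frequent at high FPKM and at short genomic span, which are tied to each other because FPKM divides by the span. Of the 134 genes over 100 FPKM, 26 were higher (19.4%) and 5 lower (3.73%), whereas of the 2034 genes from 1 to 2 FPKM 3.39% were higher and 3.93% lower. The SD of the log2 ratios was 0.29 for the 1095 genes under 5000 bases and 0.12 for the 806 genes over 50000 bases, with 11.5% and 1.61% of them higher. The pseudocount of 1 bears on this, since it shrinks the ratios of genes with low FPKM. The 10 genes with the most fragments in each library, led by the lysozyme gene Lyz2 in both, took 6.17% of all fragments in control and 7.26% in butyrate.

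**Figure D2:**
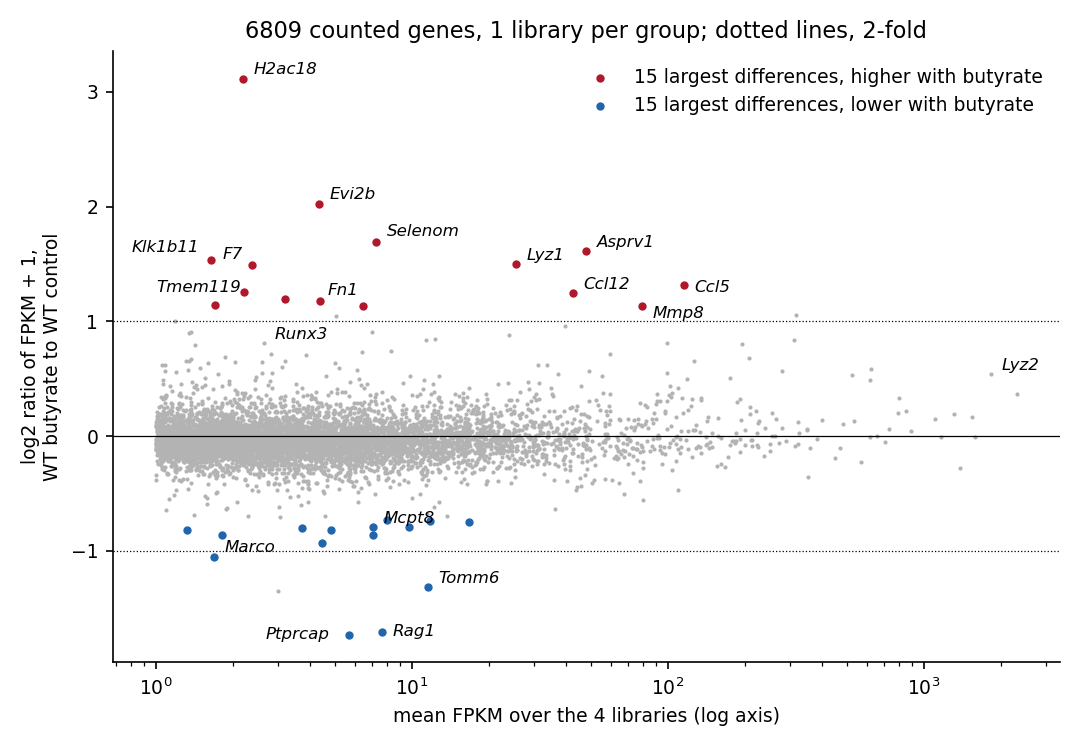
Log2 ratio of FPKM + 1 in WT butyrate to WT control against the mean FPKM over the 4 libraries (log axis) for the 6809 counted genes, with the 15 highest that have a symbol in red, the 15 lowest in blue and the 2-fold bars dotted. Most genes lie within 0.27 of 0, and 18 genes lie above the upper bar and 5 below the lower one.

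The 15 genes that stood highest with butyrate included secreted proteins of myeloid cells, chemokines, matrix proteins and proteases. They were picked by the difference between the WT libraries, so a WT library that stands apart from the rest is partly built in. Ccl5, a chemokine that draws T cells and monocytes, had 81.2 FPKM in WT control and 203 in WT butyrate, with 85.4 and 92.9 in the LNCKO pair. Its plain ratio in WT was 2.5 (95% interval 2.47 to 2.54), and the WT butyrate library stood above the other three. The same held for Ccl12, a ligand of the monocyte receptor Ccr2, at 26.2 and 63.5 FPKM in WT control and butyrate against 36.0 and 44.6 in LNCKO, a log2 ratio in WT of 1.25. Mmp8, the neutrophil collagenase, had 60.9 and 135 FPKM in WT and 60.8 and 60.6 in LNCKO, a ratio in WT of 2.22 (2.19 to 2.25). The WT butyrate library was the highest, and the other three lay between 60.6 and 60.9 FPKM.

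Fn1, which encodes the matrix protein fibronectin, had 3.22 FPKM in WT control and 8.56 in WT butyrate, against 2.63 and 3.01 in the LNCKO pair. Coagulation factor VII, F7, had 1.06 and 4.78 FPKM in WT, a ratio of 4.51 (4.12 to 4.94), and 1.42 and 2.25 in LNCKO. Ppbp, a platelet chemokine that draws neutrophils, was higher with butyrate in both genotypes, at 3.73 and 9.36 FPKM in WT and 4.46 and 8.25 in LNCKO. Asprv1, a retroviral-like aspartic protease, had 33.3 and 104 FPKM in WT and 23.9 and 30.7 in LNCKO, with log2 ratios of 1.61 and 0.35. Tmem119, a transmembrane protein known as a marker of microglia, had 1.22 and 4.30 FPKM in WT and 1.76 and 1.54 in LNCKO. Of the 15 genes, 4 were also at least 1.2-fold higher in LNCKO (26.7%) and 2 were at least 1.2-fold lower there (13.3%). Over all counted genes these shares were 1.57% and 0.867%.

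Selenom, an endoplasmic reticulum selenoprotein, had 3.89 FPKM in WT control and 14.8 in WT butyrate, a ratio of 3.80 (3.47 to 4.17), against 5.26 and 5.11 in LNCKO. Inpp5j, an inositol phosphatase, lies beside it on GRCm38 chromosome 11, with Inpp5j from 3494375 to 3504821 on the - strand and Selenom from 3514684 to 3517351 on the + strand. Its FPKM was 2.03 and 5.93 in WT and 2.31 and 2.56 in LNCKO, so the neighbours both stood at log2 ratios over 1 in WT. The other 15 selenoproteins counted lay between -0.29 and 0.41 in WT, with Selenon at 0.41 as the next highest.

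Some of the highest values are uncertain because the gene shares sequence or exons with another. H2ac18, a histone H2A gene, had 0 fragments in WT control and 266 in WT butyrate, at least 84.5-fold more against a floor of 3 fragments in the control library, but 88.3% of the 100-base words of its transcript also occur in other genes and LNCKO showed 1.12 FPKM in control and 0 in butyrate. Evi2b, a myeloid membrane protein, had 2.01 and 11.3 FPKM in WT, a log2 ratio of 2.03. It shares 98.6% of its words with the readthrough gene Evi2 on the same strand, which stood at 19.5 and 11.2 FPKM. Summed over Evi2b and Evi2, the fragments gave a ratio of 0.824, so the sum was lower where Evi2b alone was higher. This limit hardly touches Klk1b11, a tissue kallikrein, which had 0.922 and 4.58 FPKM in WT. It shares 0.524% of its words with Klk1 and overlaps no exon of another gene.

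**Figure D3:**
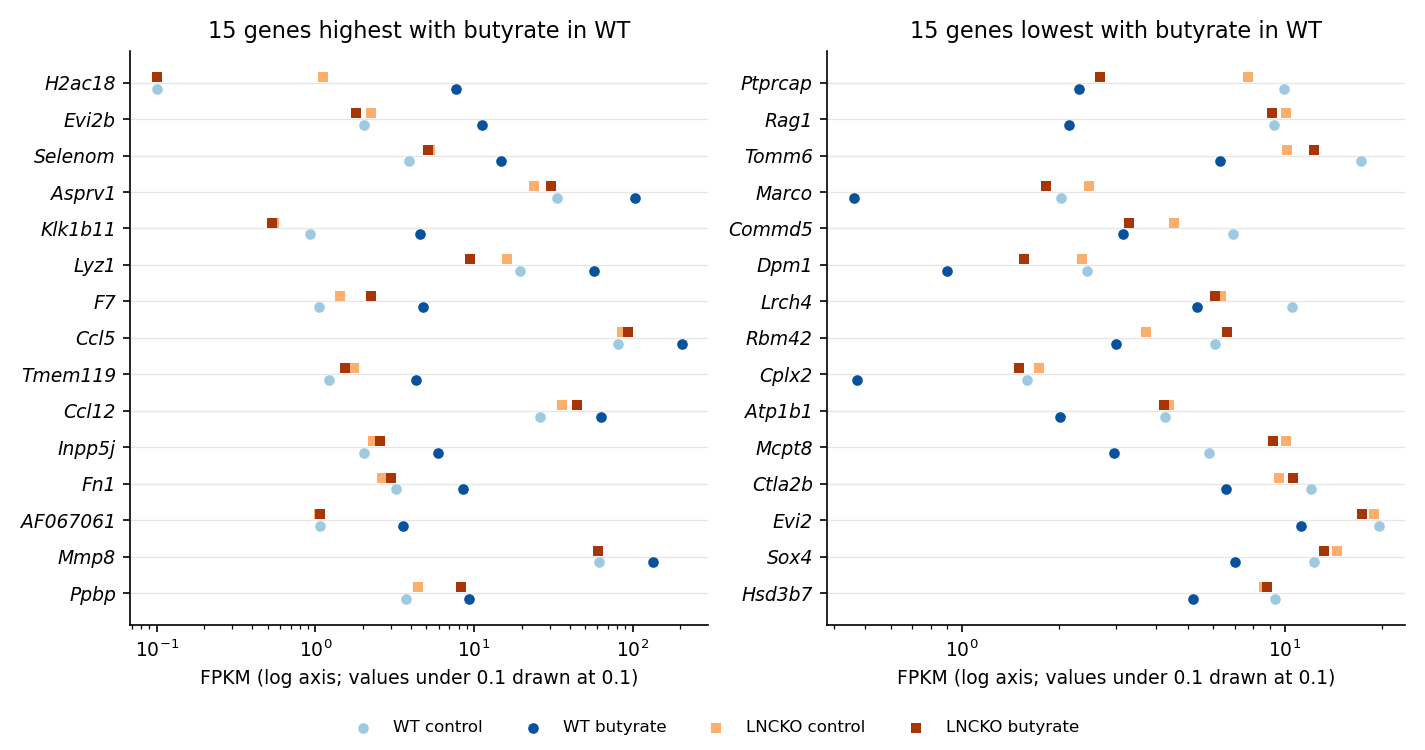
FPKM (log axes) of the 15 genes with the highest and the 15 with the lowest log2 ratio in WT, with circles for WT and squares for LNCKO, light for control and dark for butyrate, 1 library each. For most genes the dark blue WT butyrate circle stands apart and the other three libraries lie close together. The genes were picked by the difference between the WT libraries, which favours this pattern.

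Among the lowest genes, 10 of the 15 overlap the exons of another gene on their own strand, against 9.76% of all counted genes and 13.3% of the 15 highest, so fragments listed for these genes may belong to a partner. Ptprcap, the lowest with a log2 ratio of -1.73, had 9.95 and 2.30 FPKM in WT and 7.72 and 2.67 in LNCKO. Its fragments summed with those of the overlapping Coro1b gave a ratio of 0.990 in WT. Coro1b had 68.7 and 72.4 FPKM there, so the sum is mostly Coro1b and would lie near 1 whatever Ptprcap did. The Ptprcap sum therefore cannot show whether its fragments went to Coro1b. For Tomm6 with Gm21981 the summed ratio was 0.856, for Commd5 with Gm49527 0.886, for Lrch4 with Gm20605 0.990, for Hsd3b7 with Gm49388 1.02 and for Dpm1 with Gm20716 1.26. The sum stayed further below 1 for Evi2 with Evi2a, at 0.695, and for Ctla2b with Gm49391 or Gm49392, at 0.563 and 0.545. Whether the authors' counting gave overlapping fragments to one gene, to both or to none is not given in the sources used here.

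Of the 5 genes at least 2-fold lower, 4 have such an overlap and Marco has none. It encodes a scavenger receptor that binds bacteria, and it went from 2.02 FPKM in WT control to 0.461 in WT butyrate, with 2.47 and 1.81 in the LNCKO pair. The WT ratio was 0.228 (0.211 to 0.246), from 3480 and 832 fragments, and the WT butyrate library was the lowest of the 4. Marco was picked by its difference in WT, which favours this. Rag1, the recombinase of developing lymphocytes, had 9.27 and 2.15 FPKM in WT and 10.1 and 9.11 in LNCKO. Its ratio in WT was 0.232 (0.219 to 0.246), and it was 0.301 when summed with the overlapping Iftap, so the difference stands in the sum as well. Lower values without overlap were also those of Cplx2, a synaptic vesicle protein, at 1.59 and 0.473 FPKM, Atp1b1, a sodium pump subunit, at 4.25 and 2.01, Mcpt8, a basophil protease, at 5.85 and 2.96, and Sox4, a transcription factor of progenitors, at 12.4 and 7.0. In LNCKO the log2 ratios of these 4 genes lay between -0.12 and -0.04.

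Chemokines stood higher with butyrate as a group. Of the 10 counted CC chemokines, 6 were at least 1.2-fold higher in WT and 1 was lower, with a median log2 ratio of 0.32 against -0.04 over all genes, and the median in LNCKO was 0.10. All but Ccl22 lie in a pair of clusters on GRCm38 chromosome 11, where the order in the first, from 82035571 to 82116799, is Ccl2, Ccl7, Ccl12 and Ccl8. Ccl2, the main ligand of Ccr2, had 63.0 and 76.2 FPKM in WT, a log2 ratio of 0.27, Ccl7 had 23.5 and 46.6, a ratio of 0.96 on that scale, and Ccl8 had 14.6 and 27.7, at 0.88. In the second cluster, from 83525778 to 83664683, the log2 ratios in WT were 1.31 for Ccl5, 0.10 for Ccl9, 0.38 for Ccl6, -0.47 for Ccl3 and 0.09 for Ccl4. Ccl3, a ligand of Ccr1, was the one member at least 1.2-fold lower, at 42.9 and 30.7 FPKM. In LNCKO, Ccl8 stood at 1.23, above its value in WT, and the log2 ratios of the other 9 lay between 0.01 and 0.30. LNCKO control stood at 90.1 FPKM for Ccl2 and 42.7 for Ccl7, above WT control.

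The CXC chemokines had medians of 0.56 in WT and 0.42 in LNCKO. Of the 6 counted, 4 were at least 1.2-fold higher in WT (4.35% of all genes were) and 0 lower. Besides Ppbp these were Cxcl2, at 23.9 and 37.3 FPKM, Cxcl3, at 0.684 and 1.66, both ligands of the neutrophil receptor Cxcr2, and Pf4, platelet factor 4, at 86.9 and 123. Their log2 ratios in LNCKO were 0.48, 0.28 and 0.36. Cxcl10, an interferon-inducible ligand of Cxcr3, stood at 0.04 in WT and 0.48 in LNCKO. The median of the CXC list was 0.29 when the 6 members under the filter were added.

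Cytokines had no common direction, with a median of 0.01 and 2 of 15 members at least 1.2-fold higher and 3 lower. Il1b, the inflammasome-dependent cytokine, had 12.4 FPKM in WT control and 16.1 in WT butyrate, a log2 ratio of 0.35, with 15.5 and 16.9 in LNCKO. Tnf, the main inflammatory cytokine of activated macrophages, had 5.60 and 4.19 in WT, a log2 ratio of -0.35, and Gdf15, a stress-induced cytokine, had 2.23 and 1.32, at -0.48 in WT and 0.49 in LNCKO. The anti-inflammatory Il10 stood at 0.25 and Tgfb1 at -0.13, both short of the bar. The 17 Toll-like receptors and adaptors had a median of -0.08, with 1 past the bar. That one was Cd14, the co-receptor for lipopolysaccharide, at 88.6 and 60.0 FPKM in WT and 95.6 and 76.3 in LNCKO. Of 19 NF-kB subunits and inhibitors, 0 were past the 1.2-fold bar in either direction, with a range from -0.26 to 0.05.

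Macrophage genes leaned upward in part. Of the 10 genes of macrophage identity, 2 were at least 1.2-fold higher (4.35% of all genes were), among them Lyz2 at 0.54. A further 1 was lower, Cd14 at -0.56. The median was 0.15. Lyz2, which encodes lysozyme M of macrophages and neutrophils, had 1972 FPKM in the control and 2871 in the butyrate library of WT, and 1609.5 and 869.9 in those of LNCKO. Its neighbour Lyz1 had 19.4, 56.7, 16.2 and 9.51 FPKM in the same order, and 2.06% of the Lyz1 words occur in Lyz2. Both lysozymes were thus highest in WT butyrate and lowest in LNCKO butyrate.

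Of 11 markers that separate resident from monocyte-derived macrophages, 5 were at least 1.2-fold higher with butyrate in WT and 0 lower. The medians were 0.26 in WT and 0.03 in LNCKO. Of all genes 4.35% were higher, but over 100 FPKM, where C1qa, C1qb and Ly6c2 lie, 19.4% were. The 5 higher markers came from both kinds. Folr2, a folate receptor of resident macrophages, had 1.83 and 3.64 FPKM in WT and 2.84 and 2.94 in LNCKO. C1qa and C1qb, chains of the complement protein C1q that resident macrophages make, stood at 0.33 and 0.32 in WT and at 0.07 and -0.01 in LNCKO. The monocyte surface genes Ly6c1 and Ly6c2 stood at 0.32 and 0.33 in WT, with Ly6c2 at 728 and 916 FPKM. Ccr2, the chemokine receptor of inflammatory monocytes, had 146 and 132 FPKM, a log2 ratio of -0.15, and Mrc1, the mannose receptor, had 1.55 and 1.43, at -0.07. With the 5 members under the filter included the median was 0.07.

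The Ly6 family on chromosome 15 encodes small surface proteins anchored by lipid. Its 8 counted members split into 5 at least 1.2-fold higher (4.35% of all genes were) and 2 lower (5.36%). The median was 0.32, or 0.08 with the 4 members under the filter. Ly6a, known as Sca-1 and inducible by interferon, had 533 and 802 FPKM in WT and 517 and 635 in LNCKO. Ly6g, the neutrophil surface marker, had 4.04 and 9.43 in WT, a log2 ratio of 1.05, and Ly6i had 26.5 and 36.9. Lower in WT were Ly6d, a marker of lymphoid progenitors, at -0.29 and Lynx1 at -0.50, which stood at 0.09 and 0.03 in LNCKO. Ly6c1 shares 10.1% of its words with Ly6c2 and Ly6a, so fragments may be split between them.

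Complement genes had a median of 0.23, with 5 of 15 members at least 1.2-fold higher (4.35% of all genes were) and 1 lower (5.36%). The share higher was 19.4% over 100 FPKM, where several members lie. The receptor gene C5ar2 had 2.57 and 4.60 FPKM in WT, a log2 ratio of 0.65. C3, the central component of the cascade, had 26.9 and 37.6 FPKM in WT and 26.1 and 22.7 in LNCKO, with log2 ratios of 0.47 and -0.19. Properdin, Cfp, which stabilizes the C3 convertase, was the member at least 1.2-fold lower, at 50.9 and 38.2 FPKM in WT and 58.2 and 54.6 in LNCKO. Of 7 Fc gamma receptors and partners 1 was past the bar, the inhibitory receptor Fcgr2b, at 28.1 and 36.7 FPKM. Of 11 scavenger receptors, 0 were at least 1.2-fold higher and 2 lower, Marco and Stab1, an endocytic receptor, at 9.88 and 7.14 FPKM.

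Antigen presentation had medians slightly above the -0.04 of all genes. The medians were 0.17 for 16 genes of MHC class I presentation, with 3 at least 1.2-fold higher, and 0.14 for 11 genes of MHC class II presentation, with 2 higher, and 0 members of either list were lower. Over all counted genes 4.35% were higher, but this share was 8.75% from 20 to 100 FPKM and 19.4% over 100 FPKM. Many members of both lists have such FPKM, so these counts do not set the lists apart from other genes of their level. The class I members past the bar were Psmb9, an immunoproteasome subunit, at 28.4 and 35.8 FPKM, H2-Q7 at 40.8 and 50.6 and Tap2, a peptide transporter, at 15.1 and 18.7. In class II these were H2-Oa, at 5.49 and 7.68, and H2-Aa, at 51.9 and 62.9. Cd74, the invariant chain, was just under the bar at 0.22. H2-Q7 has close copies in the H2-Q family, among which the counting could split fragments.

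Type I interferon-stimulated genes had similar medians in both genotypes. Of 37 counted, 6 were at least 1.2-fold higher with butyrate in WT and 0 lower, and 6 and 0 in LNCKO, with medians of 0.13 and 0.15. The share of all genes that were higher was 4.35% in WT and 1.57% in LNCKO. Among the highest in WT were Cmpk2, a mitochondrial nucleotide kinase, at 42.6 and 63.8 FPKM, Rsad2, the antiviral enzyme viperin, at 88.3 and 119.8, and Ifit3b, which binds viral RNA, at 53.2 and 69.3. Irf7, the master regulator of interferon genes, stood at -0.02 in WT and 0.21 in LNCKO, and Ifnb1, interferon beta itself, at 0.27 and 0.61. The interferon-inducible GTPases and the p200 family, sensors and effectors of the same response, had medians of 0.08 and -0.01. Of the 15 GTPases 0 were at least 1.2-fold higher and 1 lower, Iigp1 at -0.28, and of the 11 p200 genes 0 were past the bar.

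Windows of these promoters are shown because they hold the element through which interferon-activated Stat and Irf factors are known to act. The interferon-stimulated response element was searched as TTTC followed, after any 2 bases, by TTTC on both strands in the 300 bases around each start site, from 250 before to 50 after, as given by RefSeq on GRCm38.p6. It was found in 17 of the 28 interferon-stimulated genes with a window (60.7%) and in 4.65% of the 5468 counted genes with a window. Of the 6 members past the bar in WT, 4 had a window and 3 held the element, with the match in capitals.
Ifit3b (chr19:34607793-34607822, + strand): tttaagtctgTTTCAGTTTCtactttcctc
Rsad2 (chr12:26456553-26456582, - strand): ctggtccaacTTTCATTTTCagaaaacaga
Stat2 (chr10:128270266-128270295, + strand): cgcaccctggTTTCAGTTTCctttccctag
These matches begin 154, 120 and 222 bases before the start sites of Ifit3b, Rsad2 and Stat2. Among the genes at least 2-fold higher in WT, 1 of 13 with a window held the element, and among the CC chemokines 0 of 6. A match is a description of the sequence and does not show binding.

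Neutrophil and granule genes stood on both sides of 0. Of 22 counted, 10 were at least 1.2-fold higher in WT and 5 lower, with a median of 0.20, and in LNCKO the median was -0.04. These shares were 4.35% and 5.36% over all genes, and 19.4% and 3.73% over 100 FPKM, where several members lie. The higher members, besides Mmp8 and Ly6g, included Elane, neutrophil elastase, at 174 and 278 FPKM in WT and 190.3 and 186 in LNCKO, Retnlg, a resistin-like secreted protein, at 95.8 and 141 in WT, and S100a9, a subunit of calprotectin, at 615 and 862 in WT and 493 and 490.1 in LNCKO. The lower members included Camp, cathelicidin, at 50.3 and 36.7 FPKM, Ngp at 407 and 319, Chil3 at 46.7 and 35.3 and Ms4a3 at 6.83 and 5.13. Mpo, the primary granule peroxidase, stood at 0.31 and S100a8, the other subunit of calprotectin, at 0.15. Neutrophil genes thus had no common direction, and the share of such cells in each culture was not tested.

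Matrix metalloproteinases had 4 of 11 members at least 1.2-fold higher (4.35% of all genes were) and 0 lower, with a median of 0.10. Besides Mmp8 these were Mmp27, at 2.39 and 5.36 FPKM in WT and 3.29 and 3.49 in LNCKO, Mmp13, a collagenase, at 3.59 and 5.58 in WT, and Mmp9, a gelatinase, at 15.4 and 20.3. Among matrix and stromal genes, Thbs1, thrombospondin 1, had 238 FPKM in WT control and 428 in WT butyrate, against 284 and 293 in LNCKO. Vcam1, an adhesion molecule, stood at 0.55 and Igfbp4 at 0.35. The fibroblast collagen genes Col1a1 and Col1a2 had log2 ratios of -0.28 and -0.26 in WT and of 0.59 and 0.53 in LNCKO, so the list of 8 held values on both sides of 0, with 4 past the bar upward and 1 downward.

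**Figure D4:**
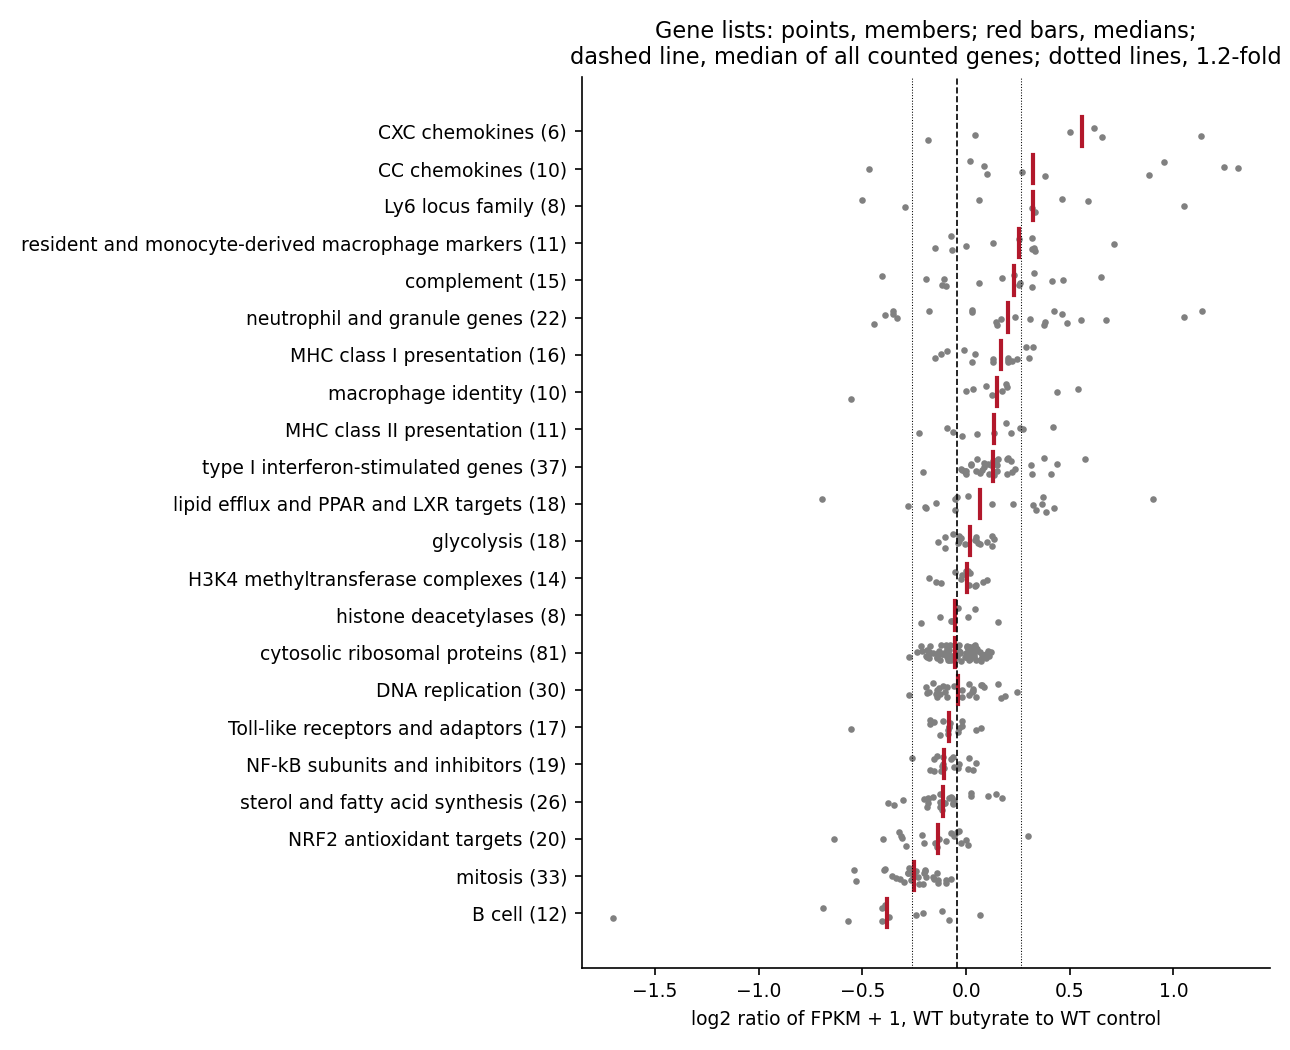
Log2 ratios of FPKM + 1 in WT butyrate to WT control for the counted members (points) of 22 gene lists, with the number of members in brackets, the median as a red bar, the median of all counted genes dashed and the 1.2-fold bars dotted. Chemokine lists have the highest medians, at 0.56 and 0.32, and the mitosis and B cell lists the lowest, at -0.25 and -0.38.

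B cell genes stood lower. Of 12 counted, 0 were at least 1.2-fold higher in WT and 7 lower (5.36% of all genes were lower). The median was -0.38 against 0.02 in LNCKO, where 0 of the 12 were past the bar in either direction. In LNCKO 1.57% of all genes were higher and 0.867% lower, so that 0 does not set the list apart. Cd79a and Cd79b, the signalling chains of the B cell receptor, had 68.3 and 82.2 FPKM in WT control and 51.3 and 62.5 in WT butyrate, while Cd79a had 69.3 and 69.2 in the LNCKO pair. Besides Rag1, given above, the lowest was Vpreb3, a pre-B cell protein, at 5.31 and 2.90 FPKM in WT, whereas Il7r, the interleukin-7 receptor that B cell precursors need, stood at -0.21. Fcrla, an Fc receptor-like protein of B cells, had 6.30 and 3.92 FPKM. Nearest to 0 were Ms4a1, known as CD20, at -0.08 and Cd22 at 0.07. Mast cell and basophil genes had no common direction, with 1 of 5 counted at least 1.2-fold higher and 2 lower and a median of 0.03, or -0.58 over the members that averaged 5 FPKM or more. Mcpt8 stood at -0.79 and the protease Prss34 at -0.36, while Ms4a2, the beta chain of the IgE receptor, stood at 0.34, Hdc, the enzyme that makes histamine, at 0.24 and Gata2, a transcription factor, at 0.03. Of 4 dendritic cell genes counted, 0 were higher and 1 lower, Siglech, a marker of plasmacytoid cells, at -0.40, with a median of 0.01. Whether there were fewer B cells in the butyrate culture was not tested.

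Genes of mitosis stood lower with butyrate in WT. The 33 counted members all had log2 ratios below 0, from -0.54 to -0.07, and 14 were at least 1.2-fold lower (5.36% of all genes were), with a median of -0.25. In LNCKO the median was -0.08, against -0.01 over all genes, with 0 members past the bar (0.867% of all genes were lower). All counted members but Birc5, at 0.13, and Tacc3, at 0.10, were below 0 there as well. On fragments per 1000000 in place of FPKM, which removes the gene length, 24 of 33 were at least 1.2-fold lower against 10.7% of all genes. The lowest were Cdc20, the activator of the anaphase-promoting complex, at 10.7 and 7.02 FPKM in WT and 11.4 and 10.8 in LNCKO, Ccnb2, a mitotic cyclin, at 3.87 and 2.37 in WT, Ccna2, the cyclin of S and G2 phase, at 16.3 and 12.2, and Kif20a, a kinesin of cytokinesis, at 6.56 and 4.77. Nearest to 0 was Bub3, a checkpoint protein, at -0.07.

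DNA replication genes were near level in WT. Of 30 counted, 0 were at least 1.2-fold higher and 1 lower, with 13 above 0 and 17 below and a median of -0.04, equal to that of all genes. In LNCKO their median was -0.09, close to the -0.08 of mitosis there, with 0 members past the bar, so the lists stood apart in WT only. Mcm2, a subunit of the replicative helicase, stood at 0.17, Cdt1, a licensing factor, at 0.19 and Dut, dUTPase, at 0.25, whereas Rrm2, the ribonucleotide reductase subunit whose level peaks in S phase, was the member past the bar at 22.2 and 18.2 FPKM. The CDK inhibitors and D-type cyclins, brakes and drivers of G1, had 0 of 10 members higher and 4 lower (5.36% of all genes were). These were Cdkn1a, known as p21, at 19.6 and 14.7 FPKM, Cdkn1b, p27, at 33.9 and 26.7, Cdkn2c, p18, at 3.58 and 1.82, and Ccne2, cyclin E2, at 2.57 and 1.86. In LNCKO their log2 ratios lay between -0.08 and 0.01.

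Promoter windows of the mitosis and replication genes were read as well. The cell cycle genes homology region, CHR, whose letters TTTGAA bind the DREAM and MuvB complexes, was searched on both strands in the same windows, and it was chosen after the mitosis values had been seen. It was found in 18 of the 26 mitosis genes with a window (69.2%), in 4 of 26 DNA replication genes (15.4%) and in 14.1% of all 5468 counted genes with one. Of the 14 mitosis genes at least 1.2-fold lower, 10 had a window and 6 held the letters, shown in capitals. This share, 60.0%, was not above the 69.2% of the whole mitosis list.
Aurka (chr2:172370521-172370550, - strand): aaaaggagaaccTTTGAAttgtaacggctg
Ccnb2 (chr9:70421533-70421562, - strand): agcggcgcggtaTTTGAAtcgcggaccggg
Cdc20 (chr4:118437344-118437373, - strand): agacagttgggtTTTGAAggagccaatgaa
Kif11 (chr19:37376351-37376380, + strand): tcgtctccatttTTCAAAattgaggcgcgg
Ncapd2 (chr6:125191692-125191721, - strand): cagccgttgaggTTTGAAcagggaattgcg
Plk1 (chr7:122159453-122159482, + strand): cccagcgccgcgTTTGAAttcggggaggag
In Kif11 the match lies on the other strand and reads TTCAAA. GC boxes, searched as GGGCGG, were found in 84.6% of the mitosis windows, 73.1% of the replication windows and 68.7% of all counted ones. These matches describe the sequence and do not show binding, and a link between them and the log2 ratios was not tested.

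**Figure D5:**
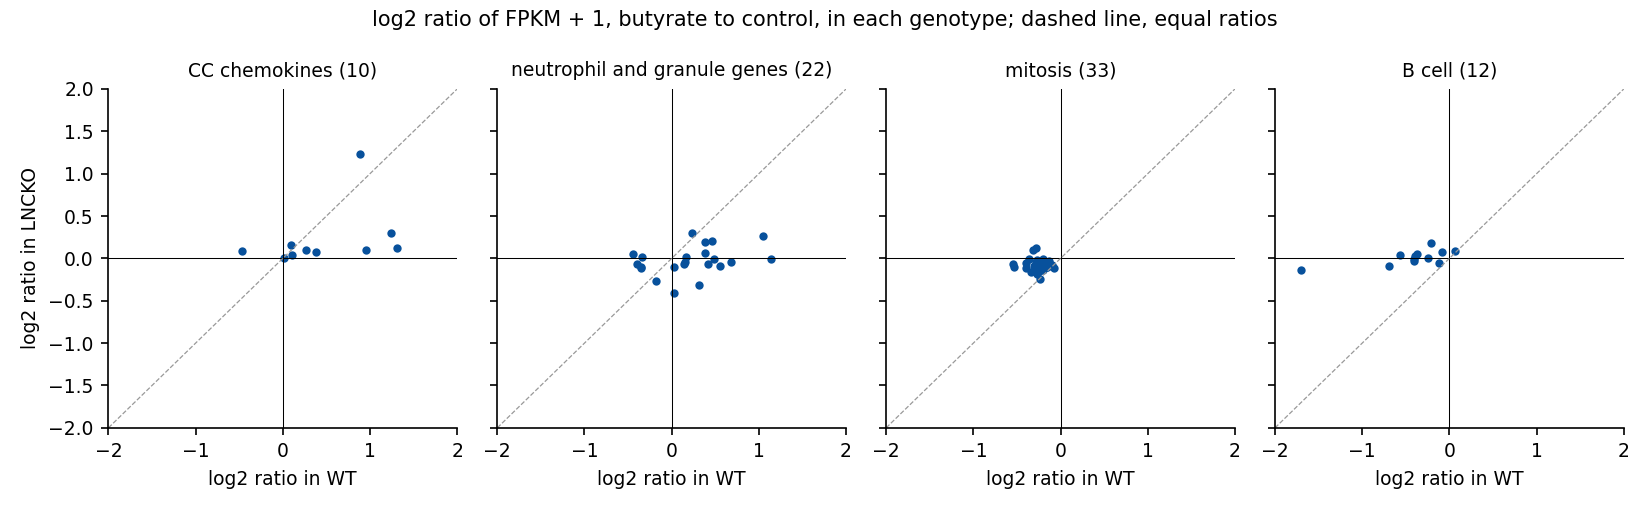
Log2 ratio of FPKM + 1, butyrate to control, in LNCKO against the same in WT for the counted members of 4 gene lists, with the number of members in brackets and equal ratios dashed. B cell and mitosis genes spread below 0 along the WT axis. They lie nearer to 0 along the LNCKO axis, where most mitosis genes are also below 0. Ccl8 at 0.88 and 1.23 is the CC chemokine above the dashed line furthest from 0.

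The direct targets and routes of butyrate were also read. Of 8 counted histone deacetylases and sirtuins, 0 were past the 1.2-fold bar, from Hdac5 at -0.22 to Sirt6 at 0.15. A list of genes known to respond to HDAC inhibitors had 1 of 13 members at least 1.2-fold higher and 1 lower, with a median of 0.04. The higher one was Ccn2, connective tissue growth factor, at 2.83 and 4.48 FPKM, and the lower one was Cdkn1a. H1f0, a linker histone that HDAC inhibitors induce in many cell types, stood at 50.2 and 59.0 FPKM, a log2 ratio of 0.23. Among receptors and transporters, Ffar2 had 2.13 and 2.98 FPKM in WT, a log2 ratio of 0.35, Hcar2 had 0.05, and the transporter gene Slc16a1 had -0.01. Histone genes ranged from -0.69 to 3.12, with 4 of 21 at least 1.2-fold higher and 5 lower, and most replication-dependent members share sequence with copies. The H3K4 methyltransferase complexes, which the study links to Runx3, had 0 of 14 members past the bar, with Wdr5 at -0.02, Ash2l at 0.01 and Kmt2a at 0.02.

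Of the 15 counted genes of the axis that the study names, Runx3 was the one at least 1.2-fold higher, at 2.85 and 5.73 FPKM in WT and 0.849 and 1.16 in LNCKO, and its values were not whole fragments under the totals that fit other genes. Of the genes the study places after it, Nr4a1, an orphan nuclear receptor, had 0.840 and 0.511 FPKM in WT, a log2 ratio of -0.28, and Zfp36, which destabilizes cytokine mRNAs, had 156 and 130.3, at -0.26, just short of the bar. Jund and Hspa1a stood at -0.32 and -0.38, past the bar with Nr4a1. The kinase gene Mapk3 stood at 0.02. Of the immediate early genes, 1 of 17 was at least 1.2-fold higher (4.35% of all genes were) and 4 lower (5.36%). The higher one was Myc, a driver of growth, at 8.28 and 15.6 FPKM in WT and 11.2 and 10.4 in LNCKO, and the lower ones included Btg2, an antiproliferative gene, at 68.6 and 48.1 in WT.

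Lipid handling held genes on both sides. Of 18 genes of lipid efflux and of PPAR and LXR control, 7 were at least 1.2-fold higher in WT and 2 lower, with a median of 0.06. These shares were 4.35% and 5.36% over all genes. Apoe, the main apolipoprotein of macrophages, had 2146 and 2772 FPKM in WT and 1907 and 2408 in LNCKO, log2 ratios of 0.37 and 0.34. Apoc1 beside it had 0.993 and 2.72 in WT, Plin2, a coat protein of lipid droplets, had 31.5 and 42.6, and Fabp4, a fatty acid carrier, had 4.42 and 6.08. Lpl, lipoprotein lipase, was lower at 13.1 and 7.71 FPKM in WT and 19.9 and 14.4 in LNCKO, as was Mylip, which degrades the LDL receptor, at -0.28 in WT. The acid lipase gene Lipa, which frees cholesterol in the lysosome, had 12.6 and 7.90 FPKM in WT and 14.4 and 13.9 in LNCKO, and Gusb, another lysosomal hydrolase, was lower at -0.42. Sterol and fatty acid synthesis had 0 of 26 members higher and 3 lower, among them Idi1 at 8.18 and 6.07 FPKM and Insig1 at 11.8 and 9.07.

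NRF2 targets, enzymes of the antioxidant response, had 1 of 20 members at least 1.2-fold higher and 6 lower, with a median of -0.14. Over all counted genes 4.35% were higher and 5.36% lower. Hmox1, heme oxygenase 1, had 33.9 FPKM in WT control and 21.5 in WT butyrate, against 42.8 and 46.2 in LNCKO. Srxn1, Cat and G6pdx, which repair peroxiredoxins, remove hydrogen peroxide and supply NADPH, stood at -0.40, -0.32 and -0.31 in WT and between -0.13 and -0.09 in LNCKO. The higher member was Gstm1, a glutathione transferase, at 12.2 and 15.2 FPKM. Genes of p53 and apoptosis had 1 of 17 members higher and 4 lower, among them Ccng1, a p53 target, at 23.6 and 17.8 FPKM.

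The basic machinery of the cell was near level. Of 81 cytosolic ribosomal protein genes, 0 were at least 1.2-fold higher and 1 lower, with a median of -0.05, and of 76 genes of oxidative phosphorylation 2 were higher and 2 lower, with a median of -0.06. Glycolysis had 0 of 18 members past the bar, from Aldoa at -0.14 to Ldha at 0.14, and of 36 proteasome genes 1 was, Psmb9 of the immunoproteasome. Mitochondrial fatty acid oxidation, the route by which butyrate itself is burned, had 0 of 13 members past the bar, with a median of -0.08.

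Across genotypes, the 296 genes at least 1.2-fold higher in WT held 39 that were also higher in LNCKO (13.2%) and 6 that were lower there (2.03%). The 365 genes at least 1.2-fold lower in WT held 15 that were lower in LNCKO (4.11%) and 12 that were higher (3.29%). Over all counted genes, 1.57% were at least 1.2-fold higher in LNCKO and 0.867% lower. Whether a response differed between the genotypes was not tested, since each group holds 1 library.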

How the data were processed

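RNA sequencing of bone marrow-derived macrophages was read in 4 groups with 1 library each. The authors deposited 1 table of FPKM per gene and library, with no counts. The submitters' processing notes name GRCm38, STAR 2.5.0c, Picard 1.126, bedtools 2.17.0 and HTSeq 0.6.0. The counting mode, the use of strand and the annotation are not given in the sources used here. The methods name TRIzol and 100-bp paired reads on an MGISEQ-2000, whereas RNeasy, TruSeq and Illumina protocols stand in the labels. The columns of the LNCKO libraries do not spell their condition and were assigned through the titles.

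Fragments were recovered with GENCODE M21 spans and the smallest library total that made them whole, within 0.02 fragments, in 16095 of 16342 matched genes. Of the genes, 262 had no symbol and 57 shared one. Exact 95% intervals (Clopper-Pearson) of FPKM ratios used these fragments, which carry no molecular identifiers. Because each group holds 1 library, no count model was fitted. All 59 gene lists, their members and the comparison itself were chosen with earlier results of these data known, and lists are described by their counts and median. Genes named are the 15 highest and 15 lowest with a symbol, all counted members of lists of up to 12, the 4 highest and 4 lowest of longer lists, cell type markers and genes the study names. Stat2, Aurka, Kif11, Ncapd2 and Plk1 were named after their values were seen, because their promoter windows hold a motif. Alternatives were pseudocounts of 0.1 or 0, other filters on low values, other scalings and, chosen after seeing the data, leaving out genes that overlap exons of another on their strand. The tools were pandas 2.3.3, numpy 2.4.6, matplotlib 3.10.9 and scipy 1.17.1 under Python 3.11.15. On simulated data, 100 of 100 genes raised 4-fold and 100 of 100 lowered 4-fold in WT were past the 2-fold bar, as were 0 of 6508 unchanged genes. The simulation held counting error and no spread between cultures, and only well-covered genes were changed, so a 4-fold change was bound to pass. It checks the calculation and cannot give the share of false calls among the genes counted here. A few genes that the lists or this naming rule hold are not reported here.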

Additional observations from a re-analysis of the deposited data

Results flagged for a closer look

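For 4 genes the butyrate and control libraries differed in opposite directions in the genotypes, each by at least 1.5-fold. With 1 library in each group, the difference between the genotypes was not tested. Lyz1 had a log2 ratio of 1.5 in WT and -0.71 in LNCKO, with 19.4 and 56.7 FPKM in WT control and butyrate. Rbm42, an RNA-binding protein, had -0.82 in WT and 0.69 in LNCKO, from 6.08 and 3.01 FPKM against 3.70 and 6.61, and 71.3% of its words occur in the overlapping Gm21982. The remaining genes encode histones and share sequence with copies, H2ac18 at 3.12 in WT and -1.08 in LNCKO, and H3c14 at -0.65 and 1.33.

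Genes under the filter, whose FPKM averaged less than 1, are outside the comparison above. Of 9566 such genes, 3535 had 500 or more fragments over both WT libraries, and for 26 of these the 95% interval of the WT ratio lay wholly beyond 2-fold, 14 higher and 12 lower. Of the 26, 5 overlap the exons of another gene on their strand.

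Among those higher with butyrate were immune genes. Gbp2b, an interferon-inducible GTPase, had 256 fragments in WT control and 2569 in WT butyrate, a ratio of 9.56 (95% interval 8.40 to 10.9), and 0.795 in LNCKO, and its FPKM in the other three libraries lay between 0.187 and 0.318. Nos2, the inducible nitric oxide synthase, had 400 and 1178 fragments, a ratio of 2.81 (2.5 to 3.15), and 0.899 in LNCKO. Its FPKM was 0.180 and 0.504 in WT and 0.592 and 0.533 in LNCKO, so WT control was the library that stood apart. Tnfrsf8, known as CD30, had a ratio of 2.91 and C1qtnf1, a relative of C1q, one of 4.65. Mfsd4a, a transporter-like protein, was higher in both genotypes, with ratios of 7.74 in WT and 10.8 in LNCKO. Slc26a10, with 55 and 869 fragments, had the highest ratio, 15.1, and 0.827 in LNCKO. The ratios of the others were 3.39 for Scel, 3.27 for Ltbp3, 2.86 for Zfp235, 2.81 for Tenm4, 2.74 for Amer2, 2.66 for Egfl7, 2.5 for Cryz and 2.34 for Rab11fip4.

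Among those lower were genes of developmental signalling. Jag1, a Notch ligand, had 406 fragments in WT control and 139 in WT butyrate, a ratio of 0.326 (0.267 to 0.396), and Lef1, a transcription factor of the Wnt pathway that B cell precursors also express, had 539 and 216, a ratio of 0.382 (0.325 to 0.448). Their ratios in LNCKO were 0.866 and 0.968. Reln, a secreted matrix protein, had a ratio of 0.280 in WT and 0.920 in LNCKO, and Gfra1, a receptor of glial cell line-derived neurotrophic factor, 0.276 and 1.14. The lowest without overlap was Scai, with 1006 and 113 fragments, a ratio of 0.107, and 0.797 in LNCKO. Genes with an exon overlap were Dpep2 at 0.0466, Nnt at 0.0885, Zc3h11a at 0.107 and Pde2a at 0.406, and the last pair stood at 4.10 and 2.60 in LNCKO. Dpep2 had 1.99 and 0.0927 FPKM in WT and 0.0816 and 0.0465 in LNCKO, so WT control was the library that stood apart. The ratios of the others were 0.348 for Synpo2, 0.366 for Olfml3 and 0.376 for Col5a3.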

How the results depend on the processing

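In WT, 18 genes were at least 2-fold higher and 5 lower, and 296 were at least 1.2-fold higher and 365 lower. With a pseudocount of 0.1 these became 29, 12, 461 and 714, with none 31, 18, 486 and 788, where the FPKM averaged 5 or more 9, 3, 149 and 158, and rescaled to 1000000 per library 91, 64, 880 and 2016. With fragments per 1000000, 9 were 2-fold lower, 458 were 1.2-fold higher and 731 lower. Without genes that overlap exons of another on their strand, which was chosen after seeing the data, 1 gene was 2-fold lower. A smaller pseudocount shrinks low genes less, rescaling enlarges the values against it and admits 11021 genes, and a stricter filter or leaving out genes tests fewer. Dropping the filter, filtering on the WT libraries alone and scaling by the median ratio kept each count within 1.5 times. The median of all genes was -0.10 when rescaled and -0.01 with the median ratio. The medians of lists were compared 529 times, and 515 of these shifts were within 0.2, while 14 were larger, 4 of them across 0. Of 4005 comparisons of single genes 3850 stayed, 155 moved and 0 reversed. Filters and leaving out genes do not alter the ratio of a single gene, so those comparisons could only stay. Another pseudocount or the use of fragments cannot turn its sign. The 0 reversed was thus fixed in advance for all settings but the scalings of whole libraries. Over these settings the medians ranged from -0.37 to -0.21 for mitosis, -0.39 to -0.24 for B cells, 0.19 to 0.38 for CC chemokines and 0.19 to 0.31 for neutrophil genes. No library was left out, since each group has 1. No paired analysis was possible because each group holds 1 library, and all 4 library names carry the same number, 2.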

Other observations

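Over all counted genes in WT, 4.35% were at least 1.2-fold higher and 5.36% lower, and several further lists held members past that bar. The integrated stress response list had 1 of 16 members at least 1.2-fold higher, Shmt2, a mitochondrial enzyme of serine metabolism, at 11.6 and 14.7 FPKM, and 2 lower, the transcription factor gene Atf5 at 5.07 and 3.35 and the stress-induced Nupr1 at 3.69 and 2.71. Atf4 itself stood at 0.07. Of 27 genes of the unfolded protein response and chaperones, 1 was higher and 2 lower, with a median of 0.02. The mitochondrial chaperonin Hspd1 stood at 0.31 and the heat-shock genes Hspa1a and Dnajb1 at -0.38 and -0.27. Of 13 genes of iron storage and transport, 0 were higher and 2 lower, Hmox1 and Ftl1. The ferritin chains split, with Fth1, the heavy chain, at 0.20 and Ftl1, the light chain, at -0.27, and they stood at 0.12 and 0.14 in LNCKO. Ferritin genes have many processed copies in the genome, among which fragments could be split.

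Of 32 genes of actin, adhesion and motility, 2 were at least 1.2-fold higher and 4 lower. Tmsb10, a thymosin that binds actin monomers, had 465 and 673 FPKM in WT and 458 and 504 in LNCKO. Vim, the intermediate filament vimentin, had 121 and 87.3 in WT and 121 and 111 in LNCKO, and S100a4, a calcium-binding protein of motile cells, had 26.2 and 19.7 in WT. Genes of alternative activation by interleukin-4 had 3 of 13 members higher and 3 lower. Il4ra, the receptor chain, stood at 0.39 in WT and Ear2, an eosinophil-associated ribonuclease, at 0.58, whereas Alox15, a lipoxygenase, stood at -0.62 and Arg1, arginase 1, stood at -0.21 in WT and 0.65 in LNCKO. Cathepsins had 3 of 13 members higher and 0 lower, Ctsk at 0.45, Ctsc at 0.37 and Ctsl at 0.37, and among myeloid transcription factors Gfi1, a repressor of granulocyte precursors, stood at 0.33, Id3 at -0.39 and Irf4 at -0.45.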
